A study of Rattus norvegicus with 20 samples.

Results

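Ermn, Steap4, Hes1, Sox2, Krt8, Krt18, Notch1, Notch2 and Jag1 are 9 genes linked with the supporting (sustentacular) cells of the nose and with Notch signalling. Every probe set with one of these symbols as its only annotated gene was taken, which gave 15 probe sets of the 31042 on the array and 9 of 14217 named genes. The rat samples were olfactory and respiratory nasal epithelium of untreated adult Sprague-Dawley animals, an outbred stock, with no genetic modification or disease per the labels. Each array held 1 sample, and the 4 groups were male olfactory (6 arrays), male respiratory (6), female olfactory (2) and female respiratory (6). All animals were 11, 13 or 14 weeks old, and the labels name 13 of them, 7 of which (5 males and 2 females) gave both tissues, fewer than the 9 males and 9 females of the series text. The lining was taken by hand from the septum and the turbinates, so each sample is a mixture of the cell types of a mucosal surface. The measure is the deposited signal of a probe set, and changes are differences of log2(signal + 16), olfactory minus respiratory, with the standard error (SE) of limma's fit and an adjusted p that counts as a call under 0.05.

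Sustentacular cells span the olfactory epithelium between the sensory neurons, hold simple keratins and many detoxifying enzymes, and keep expressing Sox2 and Hes1, while in the respiratory lining basal, secretory and ciliated cells take their place. Notch signalling works between neighbouring cells: a ligand such as Jag1 on one cell binds a receptor such as Notch1 or Notch2 on the next, proteases cut the receptor, and its freed inner part enters the nucleus and joins the DNA-binding protein Rbpj to turn on targets such as Hes1 and the Hey genes. Those targets are repressors, known for holding back neuron-forming (proneural) factors, so the pathway is best known in olfactory epithelium for the choice between supporting cell and neuron.

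The labelled tissues were set against marker genes first. Of 9 measured olfactory neuron markers 8 were higher in male olfactory epithelium, with a summed signal of 68136 to 80507 in male olfactory against 3557 to 15734 in male respiratory arrays, and of 80539 to 84073 in female olfactory against 4723 to 27473 in female respiratory arrays. Basal cell markers were lower in 7 of 8 (summed signal 4010 to 12126 against 23866 to 69284 in males) and leukocyte markers in 8 of 9 (3289 to 8442 against 18228 to 43902). Other markers moved with the tissue too: in males 4 of 6 ensheathing glia genes were higher, connective tissue had 1 of 10 higher and 6 lower, endothelium 1 of 9 higher and 4 lower, airway secretory cells 3 of 9 lower, ciliated cells 1 of 5 higher and 1 lower, and oligodendrocytes 2 of 6 higher and 1 lower. In bulk samples of this kind fewer cells of a type and less RNA per cell cannot be told apart, and the part of these markers in the results below was not tested. The RNA integrity number, which is higher for less degraded RNA, was 8.2 to 8.8 in male olfactory (n = 5) against 9.1 to 9.3 in male respiratory samples (n = 4), and 8.3 in both female olfactory against 8.7 to 9.3 in female respiratory samples. The tissues did not overlap in this number in either sex, so a fit with it as a term cannot fully part it from the tissue. On the same arrays the male calls over all probe sets were 7203 without that term and 2347 with it. Female respiratory 8 and male respiratory 7 lay apart from the other respiratory arrays. Their median signals, 143 and 150, were the lowest of the 12, against 171 to 192 on the other 10. Leaving both out kept every male and female tissue call of the members and added 2, Hes1 in females and Sox2 1381874_at in males.

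Between the tissues the 9 genes did not move as 1 group. In males Ermn was higher in olfactory epithelium on all 3 of its probe sets, Steap4, Hes1 and the main Sox2 probe set were lower, and Krt8, Krt18, Notch1, Notch2 and Jag1 were not called. That is 3 of 15 probe sets higher and 3 lower, where 11.6% of all probe sets were called higher and 13.6% lower. Counted by main probe sets, the one of each gene with the highest mean log2 signal, 1 of 9 genes was higher and 3 were lower, where 14.0% and 17.8% of named genes were. The same shares stand beside the male counts of the gene lists, above and below, which also use main probe sets. The members' median change was -0.43 in males and -0.15 in females, beside -0.05 and -0.03 over all named genes. In females, with 2 olfactory arrays, the 3 Ermn probe sets were again higher and Steap4 lower, where 7.64% of all probe sets were higher and 10.3% lower. The male tissues were fully separated, with no overlap of their arrays, for 5 probe sets, 3 of Ermn above and those of Steap4 and Hes1 below, where 6.17% of all probe sets lay wholly above and 7.19% wholly below. In females 2 Ermn probe sets lay wholly above and Steap4 wholly below, where 13.7% and 16.5% of all probe sets did.

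**Figure D1:**
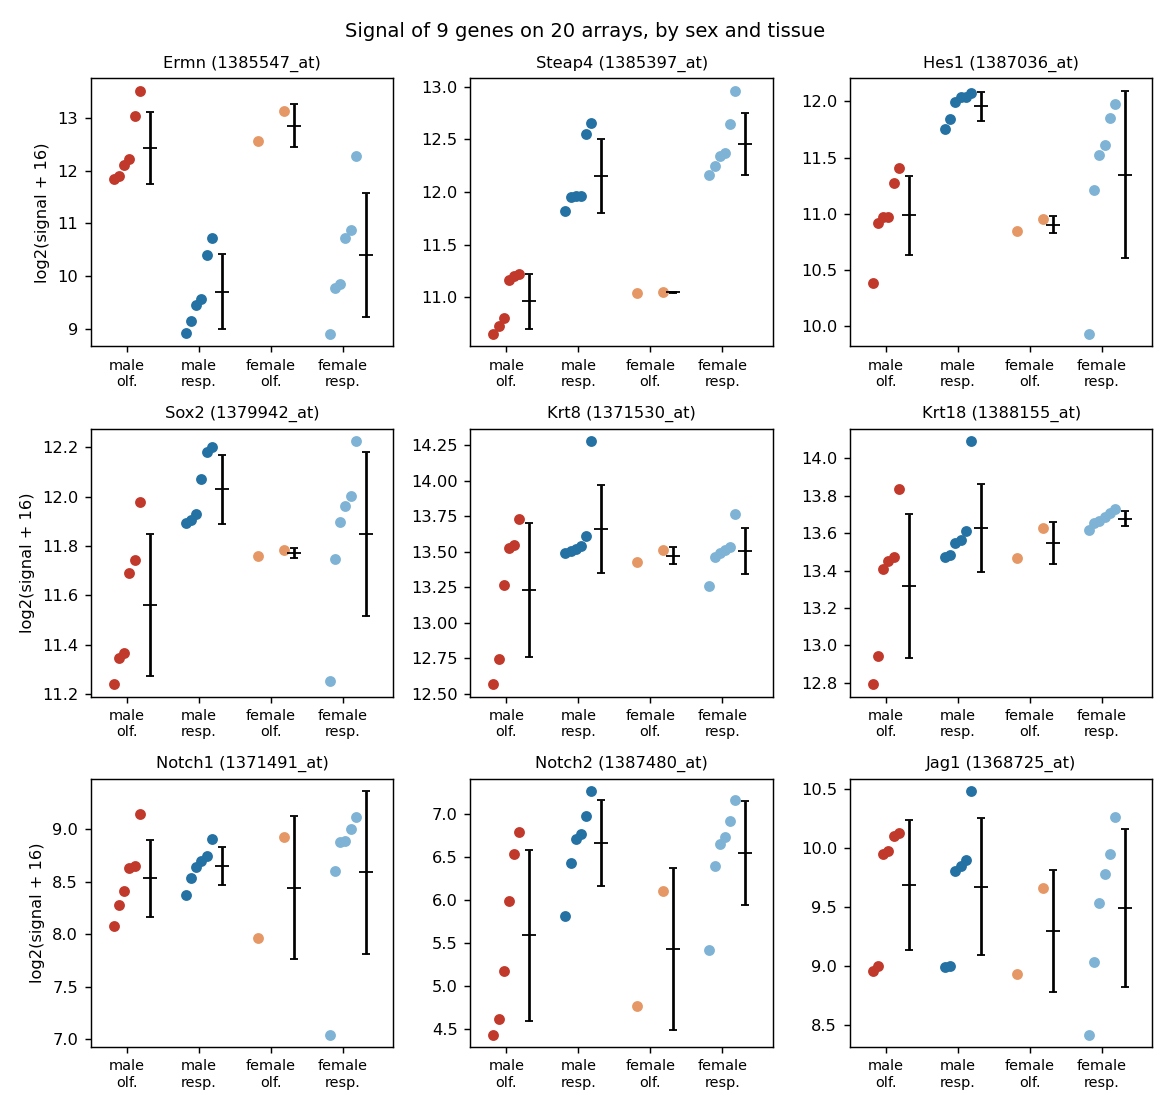
log2(signal + 16) of the main probe set of each of the 9 genes on the 20 arrays, with male groups left of female groups and olfactory left of respiratory, with coloured points for arrays (sorted within a group) and black bars for the group mean ± SD. The male olfactory points lie wholly above the male respiratory points for Ermn and wholly below for Steap4 and Hes1, while the keratin, Notch1, Notch2 and Jag1 points overlap.

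The Ermn gene, which encodes ermin, an actin-binding protein first known from myelin-forming oligodendrocytes, was the only member called higher in olfactory epithelium. On its main probe set (1385547_at) the male olfactory arrays had signals of 3637 (lowest), 4565 (median) and 11706 (highest), against 471, 714 and 1680 on the male respiratory arrays. The female olfactory signals were 9005 and 6066, against 462 (lowest), 1291 (median) and 4974 (highest) in female respiratory epithelium. In both sexes every olfactory array lay above every respiratory array of its sex, although female respiratory 8, at 4974, lay above 4 of the 6 male olfactory arrays. The change was 2.73 in males (SE 0.43, 6.63-fold, adjusted p 4.25e-05) and 2.46 in females (SE 0.61, 5.48-fold, adjusted p 0.00698). The other probe sets gave 3.23 (1382382_at) and 3.19 (1395447_at) in males and 2.88 and 2.59 in females, all called. The 3 probe sets rose and fell together over the 20 arrays, with correlations of 0.969 to 0.993. Within animals Ermn was higher in the olfactory sample of 7 of 7 animals on the main probe set, by 0.29 to 3.47 on the log2 scale, and on 1395447_at female 8 alone went the other way, at -0.09. In a fit with the RNA integrity number as a term the main change was 1.66 in males (SE 0.67, adjusted p 0.153) and 1.02 in females (adjusted p 0.523), so these calls ended. So did both calls of 1395447_at (1.88 in males and 0.97 in females, adjusted p 0.202 and 0.651) and the female call of 1382382_at (1.70, adjusted p 0.154), while its male call stayed (2.27, SE 0.57, adjusted p 0.0194). On the same arrays without that term the main change in males was 3.04, and in females it was 2.17 (adjusted p 0.128) over all arrays but female olfactory 6, where 1395447_at also lost its call (adjusted p 0.206). Without female respiratory 8 and male respiratory 7 the main change was 2.87 in males and 2.83 in females.

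Ermn is shared with other cell types, so the oligodendrocyte markers stand beside it. Mag (0.86) and Cldn11 (1.08) of the 6 measured were called higher and Mbp (-1.86) lower in male olfactory epithelium, and the summed signal of the 6 was 1896 to 7140 in male olfactory against 1901 to 4363 in male respiratory arrays. All 3 calls ended with the RNA integrity term (adjusted p 0.813, 0.61 and 0.231), those of Mag and Cldn11 also within 11 weeks (0.373 and 0.0544), and that of Mag with the animal as a fixed block (0.108) and without any of 7 single arrays. Opalin lay at or under background on every array, and the part of oligodendrocytes in the Ermn result was not tested. Ezr, Msn and Rdx, which encode ezrin, moesin and radixin, linkers of membrane and actin that share a family motif with ermin, went the other way: among 6 measured relatives Ermn was higher and these 3 were lower in males. Ezr averaged log2 11.67 ± 0.40 in male olfactory and 13.07 ± 0.09 in male respiratory arrays (SD, n = 6 each), a change of -1.40 (SE 0.24, adjusted p 1.06e-04). Msn changed by -1.14 (SE 0.27, adjusted p 0.00271) and Rdx by -0.82 (SE 0.14, adjusted p 7.46e-05). Ezr and Msn were lower in females as well (-1.08 and -1.32, adjusted p 0.0292 and 0.0191), while Rdx changed by -0.50 there and was not called (adjusted p 0.0786). The male calls of Ezr (-1.08, adjusted p 0.191) and Msn (-1.19, adjusted p 0.177) ended with the RNA integrity term, at a smaller change for Ezr and about the same change for Msn. In females both ended without female olfactory 6 (adjusted p 0.39 and 0.246).

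**Figure D2:**
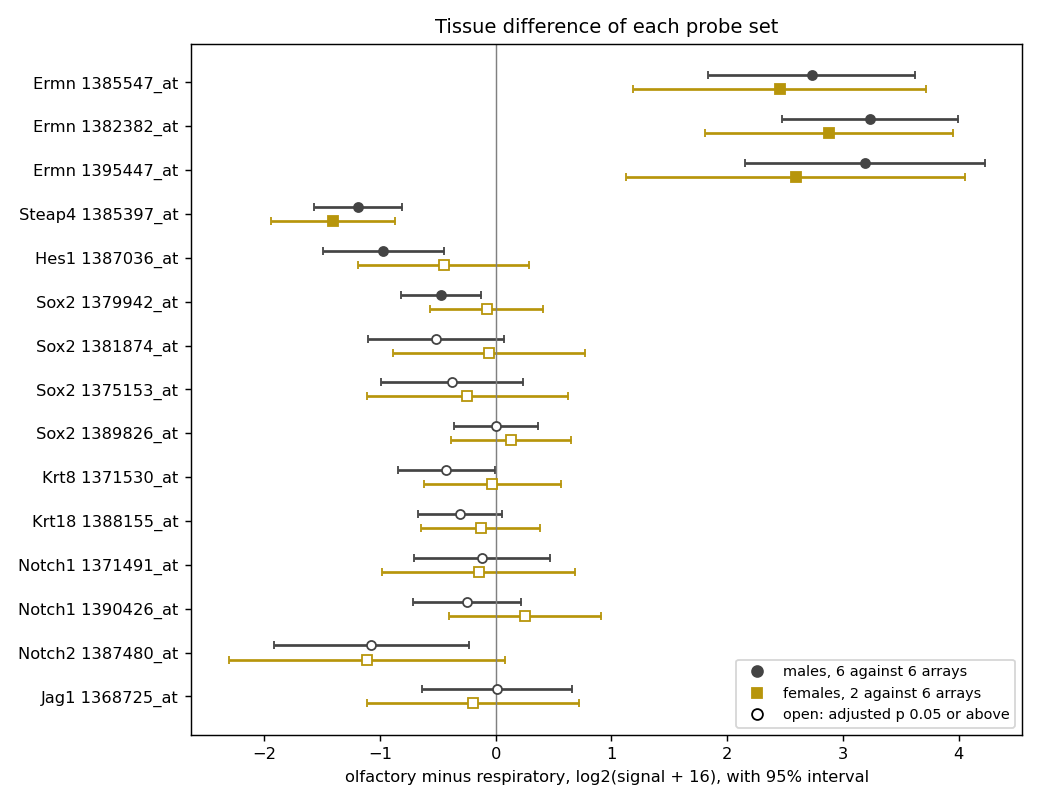
Change in log2(signal + 16), olfactory minus respiratory, of each of the 15 probe sets with its 95% interval, in males (grey circles) and females (yellow squares), filled where the adjusted p was under 0.05. The Ermn intervals lie above 0 and the Steap4 intervals below 0 in both sexes, and most others cross 0.

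Steap4 encodes a metalloreductase that reduces iron and copper for uptake, and it was called lower in olfactory epithelium in both sexes. Its signals were 1587 (lowest), 2023 (median) and 2376 (highest) on male olfactory arrays, against 3597, 3979 and 6442 on male respiratory arrays. The female olfactory arrays had 2096 and 2102, against 4570, 5225 and 7969 (lowest, median and highest) on female respiratory arrays. No olfactory signal of either sex reached any respiratory one. Steap4 changed by -1.19 in males (SE 0.18, 2.28-fold lower, adjusted p 2.84e-05) and by -1.41 in females (SE 0.26, 2.65-fold lower, adjusted p 5.56e-04). It was lower in the olfactory sample of 7 of 7 animals, with differences of -1.60 to -0.73. Without female respiratory 8 and male respiratory 7 it changed by -1.23 in males and -1.47 in females. In females the call ended with the RNA integrity term, at -1.32 (adjusted p 0.0645). Among 4 measured members of its family Steap3, the iron reductase of developing red cells, was also lower in males (-0.84, SE 0.26, adjusted p 0.0204), a call that ended without male olfactory 3 (adjusted p 0.057) and with quantile normalization (0.0777). Steap1 and Steap2 were not called, at 0.63 (adjusted p 0.08) and 0.45 (adjusted p 0.141).

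Krt8 and Krt18 encode the type II and type I keratins that pair into the filaments of simple epithelia, sustentacular cells included, and both were high in every group. Krt8 signals were 6042 (lowest), 10821 (median) and 13584 (highest) in male olfactory arrays, against 11509, 11804 and 19912 in male respiratory arrays, and the female olfactory arrays had 11685 and 11030, against 9807, 11573 and 13904 in female respiratory arrays. Krt18 had 7078, 11023 and 14597 in male olfactory against 11332, 12026 and 17458 in male respiratory arrays, and 12627 and 11317 in female olfactory against 12522, 13077 and 13532 in female respiratory arrays. The groups overlapped for both genes in both sexes, with male olfactory 2 and 3 as the low and male respiratory 7 as the high extremes. In males Krt8 changed by -0.43 (95% interval -0.85 to -0.01, adjusted p 0.133) and Krt18 by -0.31 (-0.67 to 0.05, adjusted p 0.217), and neither was called in females (-0.03 and -0.13, adjusted p 0.956 and 0.778). Without the high array, male respiratory 7, and female respiratory 8 the male changes were -0.30 for Krt8 and -0.22 for Krt18. Among animals aged 11 weeks, 3 males with both tissues, Krt8 was called lower (-0.65, adjusted p 0.0262).

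Other keratins were called lower. Of 6 measured simple and airway keratins 3 were lower in male olfactory epithelium: Krt7 (-3.21, SE 0.23, adjusted p 1.09e-09), Krt19 (-2.09, SE 0.27, adjusted p 3.14e-06) and Krt23 (-0.79, SE 0.20, adjusted p 0.00478). Krt7 averaged log2 8.18 ± 0.39 in male olfactory and 11.39 ± 0.38 in male respiratory arrays (SD, n = 6 each), and Krt7 and Krt19 were lower in females too (-2.98 and -1.51, adjusted p 2.54e-06 and 0.00759). All 5 measured keratins of basal and stratified cells were lower in males: Krt15 (-4.24, SE 0.22, adjusted p 3.22e-11), Krt5 (-1.93), Krt17 (-1.92) and Krt14 (-1.53), while Krt13, which lay at background on all 6 male olfactory arrays and above it on all 6 male respiratory arrays, was lower by a factor of at least 7.05 (adjusted p 1.02e-05). In females only Krt15 of these 5 was called (-3.28, adjusted p 8.45e-07). Without male respiratory 7 the Krt17 call ended (adjusted p 0.0511), and with the RNA integrity term those of Krt23 (-0.92, adjusted p 0.175), Krt17 (-2.87, adjusted p 0.117) and Krt13 (adjusted p 0.0727) did, the first 2 at larger changes than without it. Krt14 kept its call with that term but lost it on the same arrays without the term (-1.33, adjusted p 0.0533). The female Krt19 call ended without female olfactory 6 (adjusted p 0.101) or 8 (0.0587).

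Sox2 encodes a transcription factor of progenitor and supporting cells, present also in airway basal cells, and it was a member whose probe sets did not all give the same call. Its main probe set (1379942_at) had signals of 2400 (lowest), 2956 (median) and 4024 (highest) on male olfactory arrays, against 3793, 4082 and 4689 on male respiratory arrays. Female olfactory arrays had 3447 and 3513, against 2422, 3886 and 4778 on female respiratory arrays. The male groups overlapped by 1 olfactory array, male olfactory 4, and the change was -0.47 (SE 0.17, adjusted p 0.0418). In females it was -0.08 (adjusted p 0.867), and 6 of 7 animals had the lower signal in their olfactory sample. Probe sets 1381874_at and 1375153_at changed by -0.52 (adjusted p 0.2) and -0.38 (adjusted p 0.402) in males, and they followed the main one with correlations of 0.719 and 0.703 over the 20 arrays. The fourth, 1389826_at, lay at or under background on all 20 arrays and says nothing of either tissue. The call is close to the threshold: it ended with median centring (-0.37, adjusted p 0.134), without an intensity trend in the variance (0.0672), with the mean of all Sox2 probe sets (-0.34, adjusted p 0.237) and without any of 10 single arrays, most without male olfactory 2 (0.0951). Without female respiratory 8, which was low on every detected Sox2 probe set, 1381874_at became a call (adjusted p 0.0144) at the same change of -0.52. Of 10 measured Sox genes Sox11, a factor of immature neurons, was higher (1.82, SE 0.39, adjusted p 0.00115, and adjusted p 0.108 within 11 weeks), and Sox15 and Sox2 were lower, Sox15 by -2.72 (SE 0.45, adjusted p 7.80e-05, above background on 5 of 6 male olfactory arrays).

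Of the 6 members known from sustentacular cells 1 was called higher (Ermn), 3 lower (Steap4, Hes1 and Sox2) and 2 neither way (Krt8 and Krt18) in males, so the label was set against 10 further genes of these cells. Of those 6 were higher in males and 0 lower: the cytochrome P450 genes Cyp1a2 (3.35, SE 0.42) and Cyp2g1 (1.75, SE 0.34), the odorant-conjugating Ugt2a1 (2.80, SE 0.42), the mucin gene Muc2 (2.41, SE 0.42), the eye and nose transcription factor gene Pax6 (1.23, SE 0.20) and the flavin oxidase gene Fmo1 (0.86, SE 0.32, adjusted p 0.0497, a call lost without any of 13 single arrays). Of all named genes 14.0% were called higher and 17.8% lower in males. The summed signal of the 10 was 142160 to 164090 in male olfactory against 64711 to 113830 in male respiratory arrays. Cyp2a3, Cyp2f4, Sec14l3 and Gstm2 were not called (0.32, -0.20, 0.71 and 0.44). In females 3 of the 10 were called higher (Cyp1a2, Ugt2a1 and Pax6), 0 lower and 7 neither way, where 10.9% and 11.6% of named genes were higher and lower. The female calls of Cyp1a2 (1.76, adjusted p 0.0852) and Ugt2a1 (1.15, adjusted p 0.396) ended with the RNA integrity term. Those of Ugt2a1 (2.11) and Pax6 (1.14) ended without female olfactory 6, and that of Ugt2a1 (2.41) without female olfactory 8. All 6 members known from sustentacular cells, Ermn included, were above background on all 12 respiratory arrays. The list of further genes was drawn up with earlier results of these data known.

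**Figure D3:**
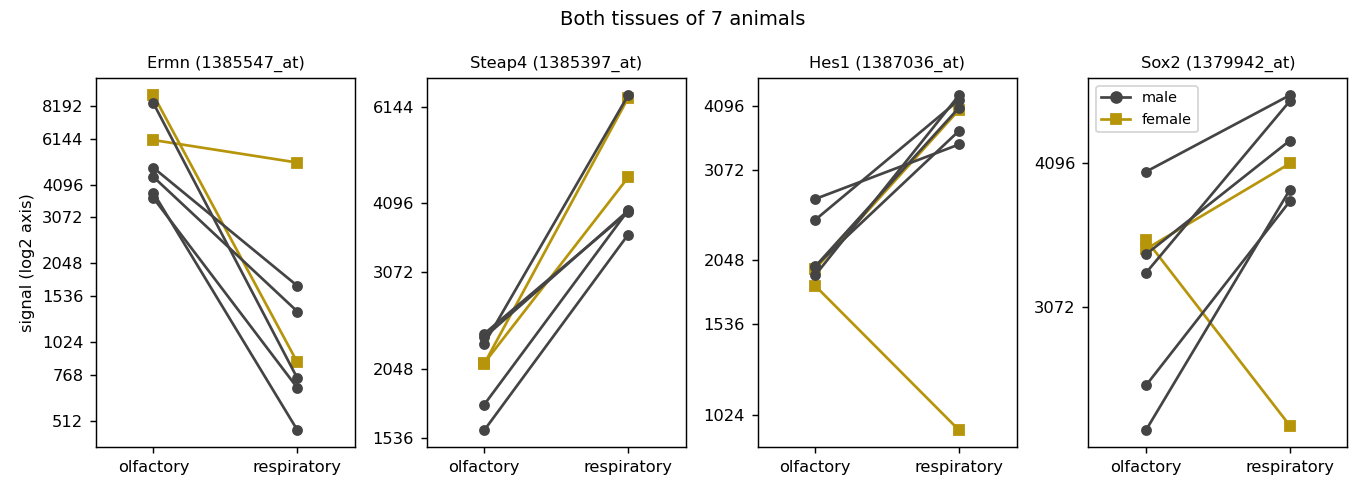
Signal (log2 axis) of the main probe sets of Ermn, Steap4, Hes1 and Sox2 in the olfactory and respiratory samples of the 7 animals that gave both, with a line per animal, males as grey circles and females as yellow squares. Every Ermn line falls and every Steap4 line rises towards the respiratory side, while for Hes1 and Sox2 the line of female 8 runs against the other 6.

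Hes1, the Notch target that represses proneural genes, was the pathway member called between the tissues in males. Male olfactory arrays had signals of 1319 (lowest), 1992 (median) and 2696 (highest), against 3444, 4123 and 4296 on male respiratory arrays, with no overlap. The female olfactory signals, 1969 and 1827, lay within the female respiratory range of 956 (lowest), 3013 (median) and 4025 (highest). Hes1 changed by -0.97 in males (SE 0.25, 1.96-fold lower, adjusted p 0.00582) and by -0.45 in females (SE 0.36, adjusted p 0.426). The low end of the female range is female respiratory 8. Without that array the female change was -0.73 and was called (adjusted p 0.0269), and the other 5 female respiratory arrays, from 2354 upwards, all lay above both olfactory ones. Hes1 was lower in the olfactory sample of 6 of 7 animals, by -1.16 at most, and higher in female 8, by 0.92. The difference between the sexes in the tissue change, 0.52 (SE 0.44), was not called (adjusted p 0.928). The male change was -0.62 (SE 0.49, adjusted p 0.529) once the RNA integrity term was added.

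The other genes of the Notch target list did not follow Hes1. Of 9 measured genes on it 4 were higher in male olfactory epithelium and only Hes1 was lower. Among all named genes 14.0% were called higher and 17.8% lower in males. The list takes in Hes family genes whether or not Notch induces them, and Hes6 is not taken here as induced by Notch. Hey1 and Heyl, repressors of the same family, changed by 1.50 (SE 0.18, adjusted p 1.37e-06) and 1.14 (SE 0.24, adjusted p 7.29e-04), Nrarp, a feedback inhibitor that Notch induces, by 1.20 (SE 0.24, adjusted p 4.87e-04), and Hes6, which promotes neuron formation and counteracts Hes1, by 0.66 (SE 0.18, adjusted p 0.00914). Hey1 averaged log2 11.95 ± 0.11 in male olfactory and 10.45 ± 0.23 in male respiratory arrays (SD, n = 6 each), and for Hey1, Heyl and Nrarp no male olfactory array overlapped a respiratory one. In females Hey1 changed by 1.58, Heyl by 1.16, Nrarp by 2.04 and Hes6 by 1.02, all called, but the calls of Heyl and Hes6 ended without female olfactory 6 (adjusted p 0.0768 and 0.119) or 8 (0.174 and 0.0513). Hes2, Hes3, Hes5 and Hey2 were not called. The calls of Heyl (0.44, adjusted p 0.587) and Hes6 (0.21, adjusted p 0.763) ended with the RNA integrity term, and that of Hes6 also over the 5 males with both tissues, with the animal as a block (0.47, adjusted p 0.0659) or without it (0.0825), and within 11 weeks (adjusted p 0.297).

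Promoters are shown for both called members that the table holds with a match, Hes1 and Steap4, and for 2 targets that went the other way from Hes1, Heyl and Nrarp. RefSeq's GRCr8 promoter table holds 8 of the 9 members, with no entry used here for Ermn or Hey1. Each entry was searched on both strands for TGGGAA, the core of the sequence that Rbpj binds, read as TTCCCA on the opposite strand. The letters are in 2 of the 8 members, Hes1 and Steap4, and in 25.7% of all 33469 promoters of the same 300 bases, and 2 or more matches, as in Hes1, are in 3.85%. In Hes1 they start 123 and 109 bases before the start site, both on the given strand and 14 bases apart, and in Steap4 there is 1 match, on the opposite strand, 82 bases before it. Hes5 and Hey2, which were not called, hold 2 matches each, and Heyl, Nrarp, Hes2 and Hes6 hold none in this window. A match is a run of letters and not a measured binding site. The 250 bases before the start site follow, 5′ to 3′ on the gene's strand, with matches in capitals, from chr11:84213046-84213295 (minus strand, Hes1), chr4:27054770-27055019 (minus, Steap4), chr5:140793021-140793270 (plus, Heyl) and chr3:28390495-28390744 (plus, Nrarp).
Hes1: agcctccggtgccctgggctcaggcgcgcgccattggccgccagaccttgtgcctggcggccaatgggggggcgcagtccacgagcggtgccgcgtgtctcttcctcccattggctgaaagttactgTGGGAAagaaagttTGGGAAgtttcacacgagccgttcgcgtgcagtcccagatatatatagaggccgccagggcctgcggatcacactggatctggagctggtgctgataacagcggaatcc
Steap4: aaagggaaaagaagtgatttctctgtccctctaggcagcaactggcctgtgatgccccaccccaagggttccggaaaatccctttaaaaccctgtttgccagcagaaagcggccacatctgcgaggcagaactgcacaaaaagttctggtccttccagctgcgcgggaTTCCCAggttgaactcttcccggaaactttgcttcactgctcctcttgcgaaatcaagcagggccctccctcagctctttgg
Heyl: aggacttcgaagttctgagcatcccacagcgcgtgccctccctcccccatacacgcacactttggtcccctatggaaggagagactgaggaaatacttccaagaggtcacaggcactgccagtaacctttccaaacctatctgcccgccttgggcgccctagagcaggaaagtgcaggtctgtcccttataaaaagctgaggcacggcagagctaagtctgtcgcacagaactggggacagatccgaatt
Nrarp: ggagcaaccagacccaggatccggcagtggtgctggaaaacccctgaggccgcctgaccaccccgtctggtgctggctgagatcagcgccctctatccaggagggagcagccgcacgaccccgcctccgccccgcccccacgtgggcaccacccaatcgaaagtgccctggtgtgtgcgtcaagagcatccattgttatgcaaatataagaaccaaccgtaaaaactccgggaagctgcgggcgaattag

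The receptors and the ligand among the members were not called between the tissues. Notch1 had signals of 254 (lowest), 352 (median) and 550 (highest) on male olfactory arrays (1371491_at), against 316, 391 and 465 on male respiratory arrays, and 233 and 470 on female olfactory against 116, 456 and 540 on female respiratory arrays. The groups overlapped, with changes of -0.12 in males (95% interval -0.71 to 0.47, adjusted p 0.817) and -0.15 in females (adjusted p 0.85). Its other probe set, 1390426_at, changed by -0.25 in males (adjusted p 0.474) and by 0.25 in females (adjusted p 0.641), so the probe sets differ in sign in females, and their correlation over the 20 arrays was 0.496. For Jag1 the signals were 479, 984 and 1102 in male olfactory against 494, 894 and 1419 in male respiratory arrays, and 471 and 795 in female olfactory against 326, 793 and 1214 in female respiratory arrays. The Jag1 change was 0.01 in males (95% interval -0.64 to 0.66, adjusted p 0.984) and -0.20 in females (adjusted p 0.811), and -0.12 and -0.41 without male respiratory 7 and female respiratory 8, which had the lowest signals of their groups. These intervals still allow changes of about the size seen for Hes1 in females.

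Notch2 was near the background and near the threshold. Its signals were 5.56 (lowest), 33.6 (median) and 94.1 (highest) on male olfactory arrays, against 40.1, 90.9 and 138.0 on male respiratory arrays. The female olfactory signals were 11.2 and 52.4, against 26.7, 87.0 and 126.8 on female respiratory arrays. It was above background on 2 of 6 male olfactory and 6 of 6 male respiratory arrays, and on 0 of 2 female olfactory and 5 of 6 female respiratory arrays. In males the change was -1.07 (SE 0.41, adjusted p 0.0573) and it missed the threshold, while averaged over both sexes it was -1.09 and passed (adjusted p 0.0188). It also passed with the RNA integrity term (-2.47, adjusted p 0.0208) and without any of 4 single arrays, lowest without male olfactory 7 (adjusted p 0.0199). In females, where both olfactory arrays and female respiratory 3 were not above background, Notch2 was not called (adjusted p 0.195, 95% interval of the change -2.31 to 0.08), and it was called with the RNA integrity term (-2.55, adjusted p 0.0492). Without male respiratory 7 and female respiratory 8 the change was -1.06 in males (adjusted p 0.072).

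**Figure D4:**
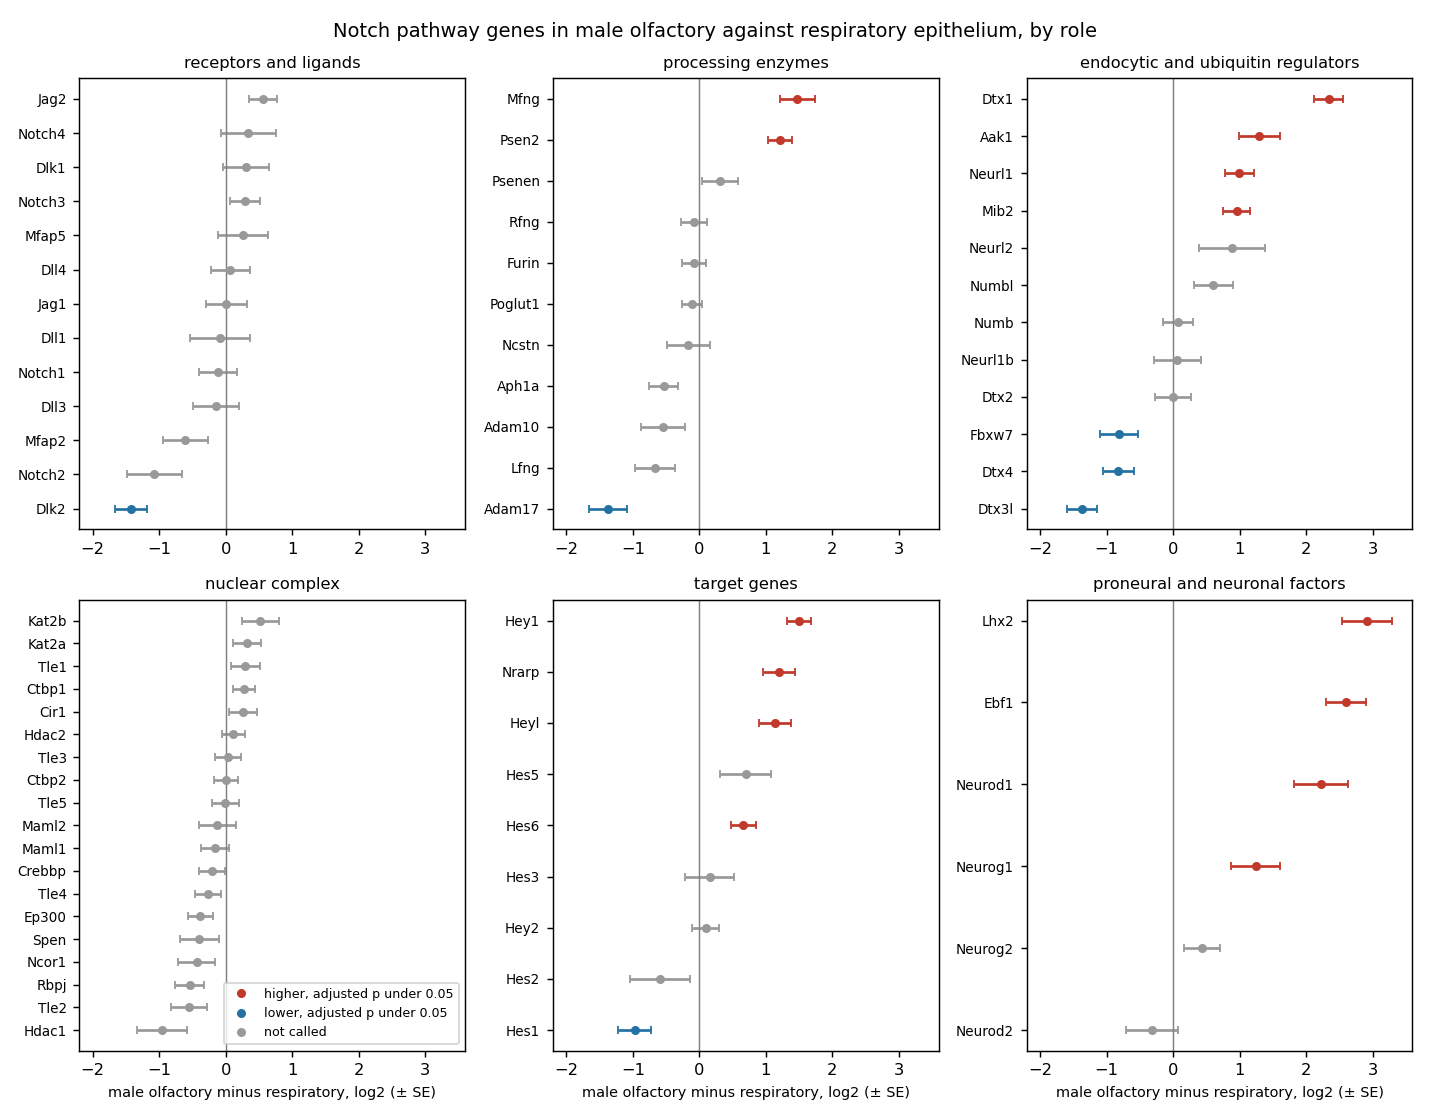
Change in log2(signal + 16), male olfactory minus male respiratory (± SE), of the main probe sets of 6 groups of Notch pathway and proneural genes, red where called higher, blue where called lower and grey where not called. Among the 9 genes of the target list 4 points are red and 1, Hes1, is blue, and all 19 points of the nuclear complex are grey.

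The rest of the pathway was described by role, from lists drawn up with earlier results of these data known. Beside the male counts, 14.0% of all named genes were called higher and 17.8% lower. Of 13 measured receptors and ligands 1 was called in males, Dlk2, a noncanonical ligand (-1.42, SE 0.24, adjusted p 1.10e-04), and the ligand gene Jag2 was called in females only (1.42, adjusted p 0.002, against 0.56 and adjusted p 0.0578 in males). The median male change of these 13 was 0.01. Of 11 processing enzymes 2 were higher, Psen2, a catalytic subunit of the gamma-secretase that cuts Notch (1.22, SE 0.18, adjusted p 1.77e-05), and Mfng, a glycosyltransferase that tunes ligand choice (1.47, SE 0.26, adjusted p 1.73e-04), and Adam17, a protease that can cut the receptor's outer part, was lower (-1.37, SE 0.28, adjusted p 8.70e-04). These 3 were called in females too, Adam17 not without female olfactory 6 (adjusted p 0.0527). Of 12 endocytic and ubiquitin regulators 4 were higher and 3 lower. Dtx1, a ubiquitin ligase of the deltex family that binds Notch, had the largest change of them (2.34, SE 0.22, adjusted p 5.15e-08), from a mean of log2 10.14 ± 0.47 in male olfactory and 7.81 ± 0.31 in male respiratory arrays (SD, n = 6 each), and in females it changed by 2.74. Aak1, an endocytic kinase (1.30), and Neurl1 (1.00) and Mib2 (0.96), ubiquitin ligases for ligands, were also higher. Dtx3l (-1.37) and Dtx4 (-0.82), which belong with Dtx1, and Fbxw7 (-0.81), which marks cleaved Notch for breakdown, were lower, but Fbxw7 lost its call without any of 8 single arrays, most without male olfactory 7 (adjusted p 0.0925). It also lost it over the 5 males with both tissues (-0.68, adjusted p 0.0696 with the animal as a block) and within 11 weeks (0.082). With the RNA integrity term the calls of Adam17 (-0.54), Mfng (0.93) and Fbxw7 (-0.16) ended at smaller changes, and those of Mib2 (1.06, adjusted p 0.0908), Neurl1 (1.21, 0.0848) and Dtx4 (-0.75, 0.363) at changes close to or above the main ones. Dtx4 was not called on the same arrays without the term either (-0.66, adjusted p 0.0886).

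Of 19 measured genes of the nuclear complex, which holds Rbpj, its coactivators and its corepressors, 0 were called in males by limma, at a median of -0.12. The male shares over all named genes were 14.0% higher and 17.8% lower. Over all named genes 10.9% were called higher and 11.6% lower in females, where 2 of the complex were higher, the corepressor genes Ctbp1 (0.78, adjusted p 0.0225) and Tle3 (1.02, adjusted p 0.0118), and 4 lower: Rbpj itself (-0.90, adjusted p 0.045), Ncor1 (-1.25, adjusted p 0.0297), Hdac1 (-1.88, adjusted p 0.0161) and Ep300 (-1.17, adjusted p 0.00455). Each of these 6 calls rests on the 2 female olfactory arrays together: without female olfactory 8 the adjusted p was 0.169 for Ctbp1, 0.308 for Tle3, 0.105 for Rbpj, 0.172 for Ncor1, 0.0619 for Hdac1 and 0.112 for Ep300. With the RNA integrity term all but that of Ep300 ended, and the Rbpj call also ended with median centring (adjusted p 0.091) and without the variance trend (0.066). In males Ctbp1 changed by 0.28, Tle3 by 0.04, Rbpj by -0.54, Ncor1 by -0.43, Hdac1 by -0.95 and Ep300 by -0.38, and the difference between the sexes was called for 0 of the 6, by limma. Among 6 measured proneural and neuronal factors, the genes that Hes repressors hold back or that act after them, 4 rose in males. They were Lhx2 (2.92, SE 0.38, adjusted p 3.42e-06), Ebf1 (2.60, SE 0.31), Neurod1 (2.22, SE 0.40) and Neurog1 (1.24, SE 0.37, adjusted p 0.0158). The Neurog1 call ended over the 5 males with both tissues, with the animal as a block (adjusted p 0.137) or without it (0.123). It also ended with the RNA integrity term (1.79, adjusted p 0.112) and within 11 weeks (0.83, adjusted p 0.077). Neurog2 and Neurod2 were above background on 1 and 2 of the 6 male olfactory arrays, against 0 and 3 of the 6 male respiratory arrays.

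Between the sexes none of the 15 probe sets was called by limma. In respiratory epithelium, female against male, 2 had an unadjusted p under 0.05: Ermn 1382382_at (0.85, adjusted p 1) and Hes1 (-0.61, adjusted p 1). Over all probe sets 0.0258% were called there. In olfactory epithelium 1 had an unadjusted p under 0.05, Notch1 1390426_at, with 258 and 331 in female olfactory arrays against 157 (lowest), 169 (median) and 239 (highest) in male olfactory arrays, which do not overlap (0.67, SE 0.32, adjusted p 0.969), where 2.28% of all probe sets lay wholly above, and 0.0419% of all were called. No probe set, member or not, had a called difference of the tissue change between the sexes, which is 0%, and of the members 0 had an unadjusted p under 0.05.

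The arrays of each tissue differed among themselves in several members. In respiratory epithelium Ermn went with Omp, the marker of mature olfactory neurons. Male respiratory 1, with the highest Omp signal of the males (5359), had the highest male Ermn signal (1680), and male respiratory 3, with the lowest Omp (815), had the lowest Ermn (471). Female respiratory 8 stood apart, with the highest respiratory Ermn (4974) at an Omp signal of 1785. Over the 12 respiratory arrays Pearson's r was 0.569 (permutation p 0.0515, adjusted p 0.188) and Spearman's rho 0.727 (permutation p 0.00988, adjusted p 0.126), and without the 2 arrays farthest from the median Omp r was 0.488. Within the sexes r was 0.941 over 6 male and 0.241 over 6 female arrays, and without female respiratory 8, a choice made after seeing the data, r was 0.911 over 11. Of 18 such relations, the 9 genes with Omp in each tissue, 0 passed after adjustment.

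**Figure D5:**
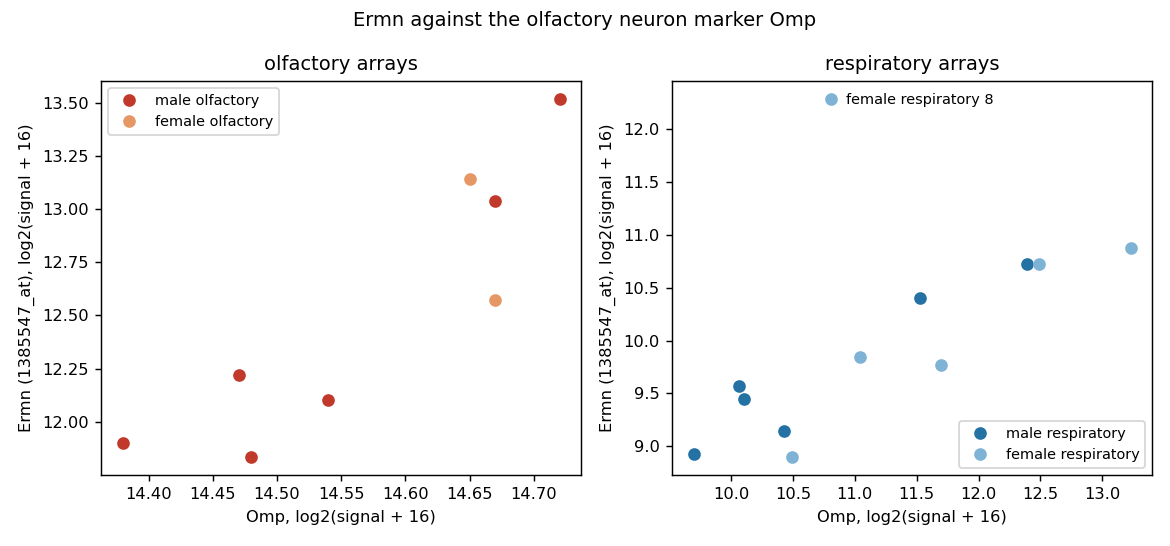
Ermn (1385547_at) against Omp, both as log2(signal + 16), on the 8 olfactory arrays (left) and the 12 respiratory arrays (right), one point per array coloured by sex. Ermn increases with Omp on both sides apart from female respiratory 8, and no relation passed after adjustment over 18.

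Female respiratory 8 was the lowest of the 12 respiratory arrays for Hes1 (956), Sox2 (2422), Notch1 (116) and Jag1 (326), and the highest for Ermn. Its summed signal was 73494 for the further sustentacular genes, within the female respiratory range of 60727 to 124040, and 9507 for olfactory neuron markers, within 4723 to 27473. Single sustentacular genes were extreme on female respiratory 8. Of the 12 it was lowest for Sec14l3 (2286), Gstm2 (7187), Fmo1 (1721) and Cyp2f4 (16640), highest for Ugt2a1 (12430), and in between for the rest. Its ensheathing glia sum, 8482, its airway secretory sum, 79277, and its endothelium sum, 4312, were the highest of the female respiratory arrays. So was its background signal, 64.9. Among the olfactory arrays the 3 with the lowest Jag1 signals, male olfactory 4 and 10 and female olfactory 6 (496, 479 and 471), had the 3 highest Ermn signals (8380, 11706 and 9005). The other 5 had Jag1 signals of 795 to 1102 and Ermn signals of 3637 to 6066. Within these 5 the order was also mostly opposite, with the lowest Jag1 (795) on the array with the highest Ermn (6066). Jag1 thus falls into separate clusters, neither of which holds 6 arrays, so no correlation is given. The median signals of those 3 arrays were 153, 139 and 134, against 150 to 188 on the other 5. Of 72 relations between pairs of members, counting both tissues, 2 passed by Pearson's r and 0 by Spearman's rho after adjustment, Ermn with Jag1 and Sox2 with Krt18. Both pairs were taken over all 8 olfactory arrays and so span such clusters, since the Sox2 signals also part, 2400 to 2625 on 3 arrays and 3287 to 4024 on 5.

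Likeness over all 20 arrays was measured as Pearson's r of log2 signals among 13037 genes above background on at least 6 arrays, given as a description. The tissue and the animals are shared by all points. Nearest to Ermn were Ubn2 (r 0.969), a histone chaperone subunit gene, Gng13 (0.964), a G protein subunit gene of olfactory neurons, and Cyp3a9 (0.961), a cytochrome P450 gene. Steap4 was nearest to Tnfsf10 (0.941), which encodes the death ligand TRAIL, Enpp3 (0.933) and Fkbp11 (0.932). For Hes1 they were Mta3 (0.929), of a chromatin remodelling complex, Cmas (0.901), which activates sialic acid, and Lasp1 (0.897), an actin-binding protein gene. Sox2 was nearest to Myh14 (0.886), Tmem30b (0.848) and Itgb5 (0.845). Krt8 and Krt18 shared their nearest gene, Dhrs11 (0.958 and 0.887), a reductase gene. Krt8 had Cd151 (0.946) and Nfic (0.913) next, and Krt18 had Pycr3 (0.877) and Card10 (0.856). Notch1 was nearest to the homeobox gene Otx1 (0.898), then Arhgef18 (0.849) and Mapk14 (0.833). Notch2 had Ddb2 (0.862), Sowahb (0.799) and Tnfrsf1a (0.797), and Jag1 had Gab1 (0.893), Zfp704 (0.868) and Herpud2 (0.862).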

How the data were processed

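RNA of 20 samples was hybridised to 1 Rat Genome 230 2.0 array each. The deposited values are a linear intensity (signal) per probe set, made by the authors with GCOS 1.0 per the submitters' processing notes. The algorithm within it is not given in the sources used here, and the mean after trimming 2% at each end is near 500 on every array. Array number limits the precision, and p-values measure the spread between animals.

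Groups came from the labels. Of 31099 probe sets 57 controls were left out. Values were taken as log2(signal + 16), and limma 3.58.1 (R 4.3.3) fitted 4 group means with eBayes and an intensity trend over all 31042 probe sets, with Benjamini-Hochberg adjustment. An array's background was set at the 95th percentile of its 27 bacterial controls. Where every array of a group lay at or under it, the fold is a bound. Of the probe sets 20826 had 1 gene symbol, 436 several and 9780 none. Correlations and figures used Python 3.11.15, scipy 1.17.1 and matplotlib 3.10.9. The fit was tested on simulated data.

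Members and gene lists were chosen with earlier results of these data known. Named were all members, called genes of each list (at most 3 in each direction where over 6 were called) and the 3 most alike genes per member. For the endocytic and ubiquitin regulators all called genes were named instead. Marker lists are given by counts and sums. The same animal number within a sex was taken from the labels as 1 animal. Deviations of the 2 samples of an animal correlated by -0.184 to 0.246, so the pairing rests on the labels. Alternatives were other pseudocounts, scalings, a background filter, no trend, the animal as a block, RNA integrity (17 arrays), age, and each array left out. The fit over males with both tissues without a block, and the Omp relation without female respiratory 8, were chosen after seeing the data.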

Additional observations from a re-analysis of the deposited data

Results flagged for a closer look

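Of 45 sets of values (a probe set in a group of 4 to 10 arrays) 6 had 1 array far from the others, where chance gives about 1 in 20. Female respiratory 8 was far below the others for Hes1, with a signal of 955.7 against 2354 to 4025, for Sox2 1381874_at, with 148.2 against 604 to 763, and for Notch1 1371491_at, with 116.2 against 372 to 540. Male respiratory 7 was far above the others for Krt8, with 19910 against 11509 to 12474, for Krt18, with 17460 against 11332 to 12497, and for Sox2 1389826_at, with 13.19 against 3.26 to 5.36, all of these under background.

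For Notch1 1390426_at the difference between the tissues went opposite ways in the sexes among animals with both tissues: the olfactory sample was higher by 0.19 to 1.21 on the log2 scale in the 2 females, and changed by -0.54 to -0.02 in the 5 males. The means of the sexes differed by 1.07, female minus male. In the fit over all arrays the difference between the sexes was not called (adjusted p 0.926).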

How the results depend on the processing

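Of 2320 recomputed changes of the 15 probe sets 2282 kept their side of the threshold, 26 lost a call and 12 gained one. Of the called changes 0 turned direction. Uncalled changes could turn sign, as Jag1 did in males, from -0.12 to 0.18 with 1 array left out in turn. With the RNA integrity number as a term, over the 17 arrays that have one, 3 probe sets were called in males and 1 in females, against 6 and 4: in males 4 of the 6 calls were lost (2 of Ermn, Hes1 and Sox2) and Notch2 was gained, and in females all 4 were lost and Notch2 was gained. The genes whose probe sets differ in sign or in call in males rose to 2 (Ermn and Sox2), against 1. Sox2 counts there by sign alone, since no Sox2 probe set was called with that term. The same arrays without that term gave 5 and 4 calls. Leaving out 1 array in turn gave 5 to 7 calls in males and 2 to 5 in females (2 without female olfactory 6). It gave 0 to 0 calls between the sexes or in their difference. Genes with probe sets that differ in sign or call in males were 0 to 1 (0 without male respiratory 1, 2, 3, 4 or 8). That count includes the sign of Sox2 1389826_at, which changed by only -0.05 to 0.09. This probe set lay at or under background on every array. A random replicate block for the animal gave 6 calls in males and 4 in females, and a fixed replicate block, fitted to the 5 males that gave both tissues, gave 6, against 5 without it. The block changed 0 of the main calls, and the pairing of samples moved Ermn to 2.72 (random) and 2.40 (fixed) in males. Without male respiratory 7 and female respiratory 8, 2 calls were gained, Hes1 in females (-0.73, adjusted p 0.0208) and Sox2 1381874_at in males (-0.48, adjusted p 0.0229). Of 39 pathway and related genes called in males 15 lost the call with the RNA integrity term, 3 on the same arrays without it and 4 without some single array. Of 44 cell type marker genes called in males 18 lost the call with that term. On the same arrays without it 1 did, and without some single array 3 did. RNA integrity and tissue went together, so calls lost or gained with that term cannot be assigned to either. The 2 female olfactory arrays limit the female comparisons, and signals near background limit Notch2.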
